A study of Mus musculus with 6 samples.

Results

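Cytochrome P450 enzymes of families 1 to 4 were described in the intestine of mice on a high-fat diet, in controls and in mice of a Myc-deletion genotype. The members were the protein-coding mouse genes whose symbol in the GENCODE M21 annotation is Cyp, a family digit from 1 to 4, subfamily letters and a closing number. This rule found 76 of the 47643 genes in the table, in 22 subfamilies on 10 chromosomes. It leaves out 5 protein-coding genes whose symbol ends in a letter, such as Cyp4a12a and Cyp3a41a, none of which had more than 2 counts in a library. The animals were 6 male mice of the C57BL/6 strain aged 7 to 8 weeks when treated, and the messenger RNA of each was sequenced. All of them received tamoxifen by injection and 2 weeks of a 60% high-fat diet. The 3 controls had the genotype Mycfl/fl, with the Myc gene flanked by recombination sites. The other 3 had the genotype MycΔIE, ERT2, named for a deletion of Myc by a tamoxifen-activated recombinase, and are called Myc-deleted below. The promoter that drives the recombinase, and whether the controls carried one, is not given in the sources used here, so loss of Myc and recombinase activity cannot be told apart. The tissue is labelled intestine, with no segment given, whereas the extraction text speaks of liver.

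P450 enzymes are haem proteins of the endoplasmic reticulum that insert 1 oxygen atom into a substrate, with electrons passed on by the reductase Por and by cytochrome b5. Families 1 to 3 oxidise drugs, dietary plant compounds, steroids and arachidonic acid, and many of their genes are switched on by the receptors Ahr, Pxr and Car when a foreign compound binds. Family 4 hydroxylates the end of the carbon chain of fatty acids and of lipid mediators such as leukotriene B4. The enterocyte is the main site of P450 activity outside the liver, where it meets ingested compounds first.

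Libraries held 9956938 to 11328693 expected counts, and 3 counts corresponded to 0.259 to 0.306 CPM (counts relative to library size, scaled between libraries by TMM). Myc stood at 5.86, 6.05 and 6.03 CPM in controls 1 to 3 and at 3.29, 4.36 and 5.81 CPM in Myc-deleted mice 1 to 3. Its log2 fold change was -0.41 with an SE of 0.22 and missed the threshold (edgeR adjusted p = 0.318), and the library labelled Myc-deleted 3 lay close to the controls. The labels were compared with the hepatocyte list of 28 genes, whose members summed to 111 to 119 CPM in control mice and 97.2 to 107 CPM in Myc-deleted libraries. Serpina1b (47.0 to 72.3 CPM in the controls) and Tat (24.2 to 40.7 CPM) were its largest parts there. Kng1 and Mup20 were at 0 in every library, and Alb, the albumin gene, reached at most 37 counts. Among the P450 genes themselves, some known from liver were near absence: Cyp2e1 had 0 to 4 counts, Cyp2c29 0 to 1, Cyp1a2 0 to 1 and Cyp2f2 0 to 2. These do not stand for all P450 genes of liver, as Cyp3a11, another liver form, had 23 to 89 counts. Fabp6, the bile acid binding protein of the ileum, stood at 11004 ± 1462 CPM (SD, n = 3) in the controls. In RNA from a mixture of cell types, fewer cells of a type and less RNA per cell cannot be told apart.

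Of the 76 genes, 21 had 0 counts in every library, 23 reached no more than 5 counts and 14 more reached over 5 counts but too few to be tested. The remaining 18 passed the filter on low counts, and these fall into 9 subfamilies. Among these 18, 7 genes were higher in the Myc-deleted mice and 2 were lower at an adjusted p under 0.05 (edgeR quasi-likelihood test, Benjamini-Hochberg adjustment over all genes tested). Over all 12720 genes tested, 7.95% were called, 4.22% higher and 3.73% lower (537 and 474 genes; 449 and 591 with upper-quartile scaling, which left 6 P450 genes higher and 2 lower). Called genes are commoner among abundant ones: among the 6518 tested genes whose mean log2 CPM was 4 or more, a bound chosen after the values were seen, 11.6% were called. Of the 16 P450 genes above that bound 9 were called. The median log2 fold change of the 18 genes was 0.21, against -0.002 over all genes tested. In 12 of the 18 genes the 3 libraries of one genotype all lay above the 3 of the other, as in 27.8% of all tested genes and 34.4% of those above the bound on abundance. The count of higher genes was 4 without control 1, 3 without control 2, 3 without Myc-deleted mouse 2 and 5 to 8 without any of the other 3 libraries. Over all genes tested, the share called higher was 2.63%, 1.77% and 2.59% without control 1, control 2 or Myc-deleted mouse 2. In the other leave-one-out runs that share was 2.88% to 3.87%. The count of lower P450 genes was 2 in each leave-one-out run, where 1.80% to 3.44% of all tested genes were called lower.

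**Figure D1:**
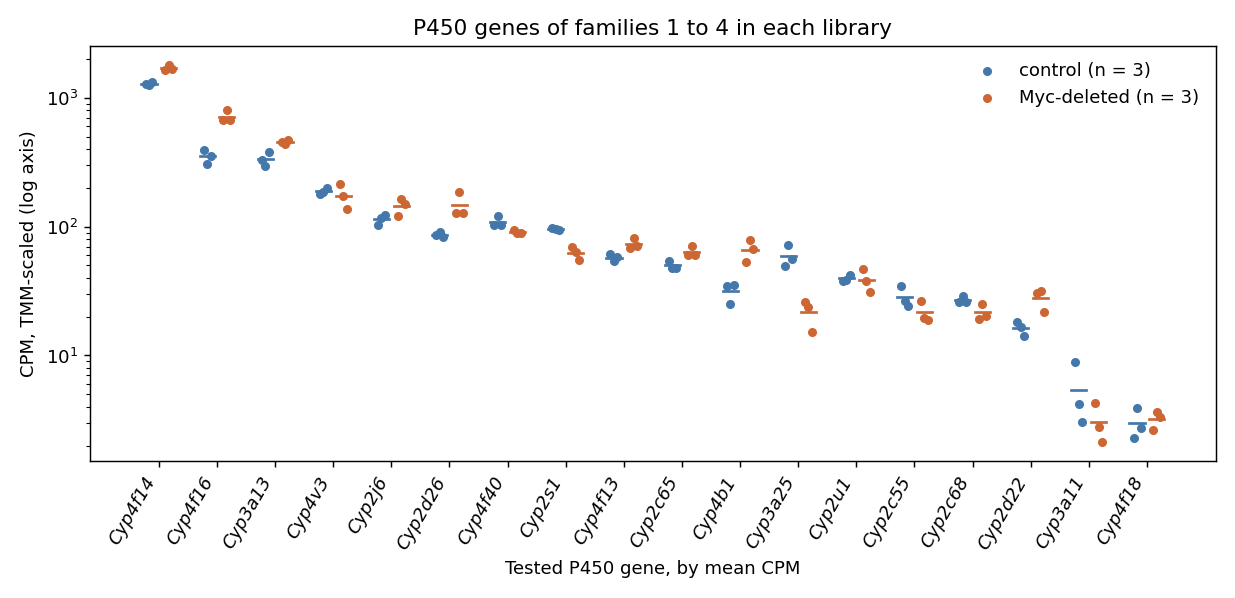
Level of each of the 18 tested P450 genes in each library, as TMM-scaled CPM on a log axis; blue points are the 3 controls, orange points the 3 Myc-deleted mice, and short lines the group means. Cyp4f14 is the highest at over 1200 CPM in all libraries, and Cyp4f16, Cyp2d26 and Cyp4b1 show Myc-deleted points above the control points, while Cyp3a25 and Cyp2s1 show them below.

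**Figure D2:**
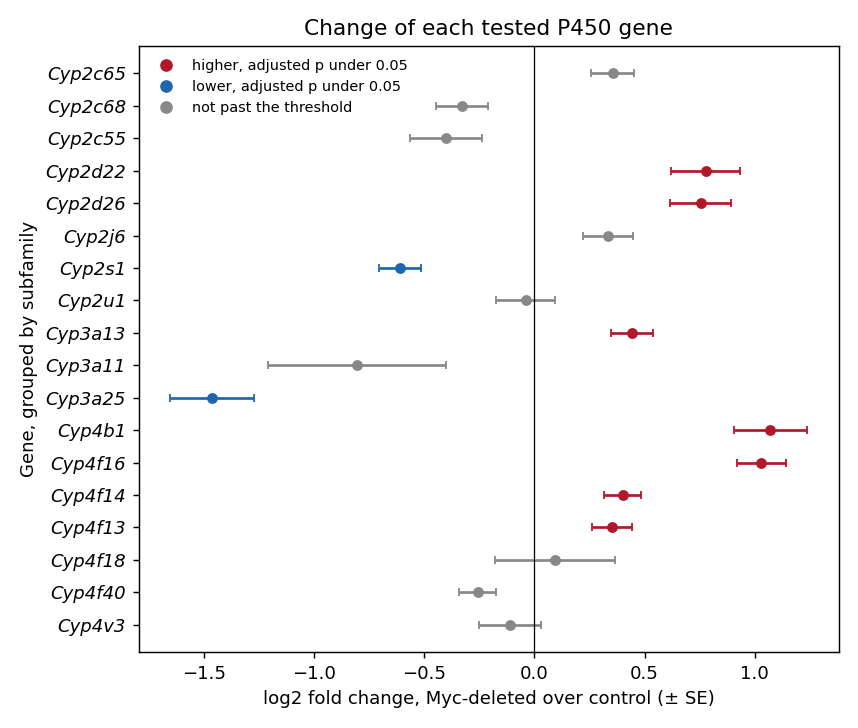
Log2 fold change of the 18 tested genes, Myc-deleted over control, with its SE as a bar, grouped by subfamily. Red marks genes called higher, blue genes called lower and grey genes that did not pass; values run from -1.46 for Cyp3a25 to 1.07 for Cyp4b1.

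The Cyp4f subfamily, which hydroxylates long-chain fatty acids, leukotrienes and the side chains of vitamins E and K, supplied most of the P450 messenger RNA. Its 9 members summed to 1810 ± 59.1 CPM in control mice against 2585 ± 168 CPM in Myc-deleted mice. Of its 5 tested members, 3 rose, Cyp4f16, Cyp4f14 and Cyp4f13, and Cyp4f40 and Cyp4f18 did not pass.

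Cyp4f16 (chr17:32536558-32551798, GRCm38, plus strand) had the lowest p of the 18. It measured 394, 307 and 350.4 CPM in controls 1 to 3 and 670.2, 802 and 672 CPM in Myc-deleted mice 1 to 3. Every Myc-deleted library stood well above every control. The log2 fold change was 1.03 ± 0.11 SE (2.04-fold, edgeR adjusted p = 0.00101), and the call held in each of the 15 alternative analyses. Those analyses include a looser adjusted p threshold of 0.1 on the same fit, which could remove no call. Part of the Cyp4f16 transcript is not unique: 25.8% of its 50-base windows occur in another gene's transcript, nearly all in Cyp4f37, which itself had 1 count or fewer per library.

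Cyp4f14 (chr17:32905070-32917342, minus strand) encodes the leukotriene B4 omega-hydroxylase of mouse and was the most abundant P450 gene. It measured 1283, 1255 and 1329 CPM in controls 1 to 3 and 1646, 1802 and 1657 CPM in Myc-deleted mice 1 to 3. The groups did not overlap, and all 6 libraries lay close to their group mean. It rose 1.32-fold (log2 fold change 0.40 ± 0.08 SE, edgeR adjusted p = 0.0178). The call was lost without control 1 (edgeR adjusted p = 0.0653), control 2 (0.0903) or Myc-deleted mouse 2 (0.0840), with fold changes of 0.35 to 0.42 in the 6 leave-one-out runs.

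Cyp4f13 (chr17:32924688-32947402, minus strand), the gene next to Cyp4f14, measured 61.3, 53.7 and 57.7 CPM in control mice and 68.4, 81.1 and 70.7 CPM in Myc-deleted mice. It rose just past the threshold (0.35 ± 0.09 SE, edgeR adjusted p = 0.0462). The adjusted p exceeded 0.05 when any library but Myc-deleted mouse 1 was left out, at 0.0716, 0.198 and 0.110 without control 1, 2 or 3 and 0.182 and 0.0727 without Myc-deleted mouse 2 or 3. With upper-quartile scaling it was 0.0717, and with a replicate block 0.0765 (edgeR).

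Cyp4f40 (chr17:32658900-32676914, plus strand) lies between Cyp4f16 and Cyp4f14. It measured 103, 120.3 and 102 CPM in control mice and 93.6, 89.6 and 89.5 CPM in Myc-deleted mice. Each Myc-deleted library lay below each control, but the difference did not pass (-0.26 ± 0.08 SE, edgeR adjusted p = 0.0993). Cyp4f18, the leukotriene B4 hydroxylase of neutrophils and other myeloid cells, lies apart on chromosome 8. It was low at 2.98 ± 0.824 CPM in control mice and 3.20 ± 0.496 CPM in Myc-deleted mice (0.09 ± 0.27 SE, edgeR adjusted p = 0.88). The list of 16 immune cell markers summed to 1509 to 1855 CPM in control mice and 1953 to 2263 CPM in Myc-deleted libraries. Of its 16 tested genes 1 fell, where 3.73% of all tested genes fell. This was Itgam, a myeloid integrin (-1.55 ± 0.15 SE, edgeR adjusted p = 0.000693). The other Cyp4f members, Cyp4f15, Cyp4f17, Cyp4f37 and Cyp4f39, had at most 9 counts in a library and were not tested.

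Promoter sequences are shown to set genes of 1 cluster side by side. For Cyp4f14 and Cyp4f16, which rose, and Cyp4f40 between them, the 250 bases before the RefSeq start (GRCm38.p6; the most upstream of 4 starts for Cyp4f14 and of 2 for Cyp4f40) read 5′ to 3′ on the gene's strand as follows, with matches to the motifs named further below in capitals.
Cyp4f14 (chr17:32917357-32917606, - strand): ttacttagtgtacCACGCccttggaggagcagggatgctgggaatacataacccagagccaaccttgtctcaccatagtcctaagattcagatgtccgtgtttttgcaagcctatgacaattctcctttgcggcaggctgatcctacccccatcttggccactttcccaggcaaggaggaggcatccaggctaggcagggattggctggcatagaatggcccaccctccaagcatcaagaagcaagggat
Cyp4f16 (chr17:32536307-32536556, + strand): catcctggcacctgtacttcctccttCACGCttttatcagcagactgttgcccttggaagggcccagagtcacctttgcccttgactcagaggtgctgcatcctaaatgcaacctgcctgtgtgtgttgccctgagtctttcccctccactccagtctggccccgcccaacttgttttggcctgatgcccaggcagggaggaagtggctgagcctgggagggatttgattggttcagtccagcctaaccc
Cyp4f40 (chr17:32658636-32658885, + strand): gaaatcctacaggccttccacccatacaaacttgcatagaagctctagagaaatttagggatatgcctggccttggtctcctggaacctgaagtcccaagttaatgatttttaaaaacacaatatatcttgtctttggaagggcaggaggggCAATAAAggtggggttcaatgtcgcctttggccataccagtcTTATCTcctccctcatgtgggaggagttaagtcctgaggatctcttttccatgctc

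Cyp4f14 (at this start, not at its other 3) and Cyp4f16 hold 1 match each to GCGTG, the core of the Ahr binding site, 237 and 224 bases before the start and on the opposite strand. Cyp4f13, which also rose, holds a match to none of the motifs searched. The core is common: 28.2% of the 32851 promoters in the table hold it in 250 bases. Cyp4f40 holds the Gata motif AGATAA 56 bases before its start (9.99% of all promoters) and the Cdx2 motif TTTATNG 98 bases before it (9.81%).

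In the rest of family 4, Cyp4b1 rose most. Cyp4b1 (chr4:115624725-115647723, minus strand) oxidises fatty acids and furan compounds such as 4-ipomeanol. It measured 34.8, 24.9 and 35.2 CPM in controls 1 to 3 and 53.1, 79.1 and 66.6 CPM in Myc-deleted mice 1 to 3. The groups did not overlap, and the Myc-deleted mice had the wider spread. The log2 fold change was 1.07 ± 0.17 SE (2.10-fold, edgeR adjusted p = 0.00441), and the call held in each of the 15 alternative analyses. Within its transcript 10.3% of the 50-base windows recur in another gene, mainly in Cyp4b1 pseudogenes.

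Cyp4v3, the mouse counterpart of a fatty acid hydroxylase whose loss in people causes a crystalline retinal dystrophy, measured 178, 185 and 200.1 CPM in control mice against 213, 173 and 136 CPM in Myc-deleted mice. The Myc-deleted libraries straddled the controls, and no difference was called (-0.11 ± 0.14 SE, edgeR adjusted p = 0.700). Its sign turned without Myc-deleted mouse 3 (0.034). The Cyp4a subfamily, the fatty acid hydroxylases that Ppara induces in liver and kidney, was close to silent. Cyp4a10, Cyp4a14 and Cyp4a29 had 2 counts or fewer in each library, and Cyp4a31 and Cyp4a32 were at 0 in all. Cyp4a29, the highest of the 5 per length, had 1 count in Myc-deleted mouse 1 and 1 in mouse 3.

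The Cyp3a subfamily, which oxidises drugs, bile acids and steroids, moved in opposite directions. Of 7 members, 3 were tested: Cyp3a13 rose, Cyp3a25 fell and Cyp3a11 did not pass. The sum of the subfamily was 399.5 ± 33.8 CPM in control mice and 478 ± 14.1 CPM in Myc-deleted mice, most of it Cyp3a13.

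Cyp3a25 (chr5:145977194-146009618, minus strand) showed the largest change of all 18. It measured 49.9, 71.8 and 56.5 CPM in controls 1 to 3 and 25.9, 23.6 and 15.3 CPM in Myc-deleted mice 1 to 3. The highest Myc-deleted library stood far below the lowest control. It fell with a log2 fold change of -1.46 ± 0.19 SE (2.75-fold lower, edgeR adjusted p = 0.00200), a call kept in each of the 15 alternative analyses. Of its 50-base windows 26.8% recur elsewhere, mainly in Cyp3a59, which had 3.08 to 13.8 counts per library.

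Cyp3a13 (chr5:137892932-137921619, minus strand), the Cyp3a form typical of rodent intestine, lies apart from the other Cyp3a genes, with Cyp2w1 between. It measured 328, 295 and 376 CPM in control mice and 453, 435 and 469.9 CPM in Myc-deleted mice. The groups did not overlap. It rose 1.36-fold (0.44 ± 0.10 SE, edgeR adjusted p = 0.0206), and none of its 50-base windows occurs in another gene. The call was lost without control 1 (edgeR adjusted p = 0.0752) or 2 (0.101) or Myc-deleted mouse 2 (0.0547) or 3 (0.0637).

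Cyp3a11, the main Pxr-induced form in liver, was low here at 8.84, 4.24 and 3.06 CPM in control mice and 4.30, 2.79 and 2.12 CPM in Myc-deleted mice. The ranges overlapped and the difference did not pass (-0.80 ± 0.40 SE, edgeR adjusted p = 0.281). Cyp3a44, with 9, 20 and 4 counts in the controls and 2 in each Myc-deleted library, was too low for the filter. Without the filter its adjusted p was 0.0540 (edgeR), the lowest among the members that only that run tested. Of the hepatocyte markers, 3 of the 10 tested fell (3 of 28 listed), where 3.73% of all tested genes fell. Alb went from 2.61 ± 0.667 to 0.582 ± 0.433 CPM, the tyrosine aminotransferase gene Tat from 32.2 ± 8.22 to 11.7 ± 6.00 CPM and Hpd, also of tyrosine breakdown, from 4.61 ± 1.18 to 2.30 ± 0.384 CPM. Leaving out 1 library left 0 of these calls without control 2 or 3, 1 without control 1 or Myc-deleted mouse 2 or 3, and 2 without Myc-deleted mouse 1. Alb rested on 10, 1 and 8 counts in Myc-deleted mice 1 to 3. The tested markers that were not called had fold changes of both signs, such as 0.30 for Serpina1b, the largest part of the list, and -0.68 for Trf. The part of the hepatocyte markers in the Cyp3a values was not tested.

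The promoters of the 2 Cyp3a genes that moved in opposite directions are shown for comparison, again as the 250 bases before the start.
Cyp3a13 (chr5:137921620-137921869, - strand): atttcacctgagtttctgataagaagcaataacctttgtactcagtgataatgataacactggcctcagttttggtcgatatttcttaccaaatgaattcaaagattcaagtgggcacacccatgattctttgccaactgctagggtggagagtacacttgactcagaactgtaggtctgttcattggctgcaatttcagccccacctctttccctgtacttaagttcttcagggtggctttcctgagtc
Cyp3a25 (chr5:146009618-146009867, - strand): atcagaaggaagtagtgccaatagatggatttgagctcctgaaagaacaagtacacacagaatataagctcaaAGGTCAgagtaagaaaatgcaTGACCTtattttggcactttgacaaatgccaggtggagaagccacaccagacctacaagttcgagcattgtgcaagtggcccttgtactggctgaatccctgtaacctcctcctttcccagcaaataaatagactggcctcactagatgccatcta

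Cyp3a25 holds 2 matches to AGGTCA, the core site of nuclear receptors such as Pxr, 177 and 156 bases before the start and on opposite strands. This core occurs in 14.0% of all promoters. The window of Cyp3a13 holds a match to none of the 10 motifs searched.

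The Cyp2d subfamily rose in both of its tested members. Cyp2d26 (chr15:82790101-82794294, minus strand) measured 86.6, 90.9 and 82.8 CPM in controls 1 to 3 and 127, 185 and 127 CPM in Myc-deleted mice 1 to 3. All Myc-deleted libraries lay above the controls, with mouse 2 the highest. The log2 fold change was 0.75 ± 0.14 SE (1.69-fold, edgeR adjusted p = 0.00986) and the call held in each of the 15 alternative analyses.

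Cyp2d22 (chr15:82370527-82380260, minus strand), often taken as the mouse counterpart of human CYP2D6, measured 18.2, 16.5 and 14.1 CPM in control mice and 30.6, 31.6 and 21.6 CPM in Myc-deleted mice. The groups did not overlap, and Myc-deleted mouse 3 lay nearest to the controls. The gene rose 1.71-fold (0.78 ± 0.16 SE, edgeR adjusted p = 0.0154). Its adjusted p was 0.0701 without control 2, 0.0595 without control 3 and 0.0591 without Myc-deleted mouse 2. The coding sequences of Cyp2d22 and Cyp2d26 are 78.5% identical, and 5.33% of the 50-base windows of Cyp2d26 occur in Cyp2d22. The other 6 Cyp2d genes lie between these 2 on chromosome 15 and had 8 counts or fewer in each library. The promoter of Cyp2d26 is shown because it is the only one of a called gene with a match to TATAAA, the TATA box, 31 bases before the start; it lies on the opposite strand.
Cyp2d26 (chr15:82794246-82794495, - strand): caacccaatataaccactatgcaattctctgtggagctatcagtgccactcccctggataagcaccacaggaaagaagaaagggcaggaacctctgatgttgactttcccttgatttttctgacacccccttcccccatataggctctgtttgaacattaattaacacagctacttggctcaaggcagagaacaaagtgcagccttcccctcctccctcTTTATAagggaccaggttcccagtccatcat

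The Cyp2c subfamily, whose enzymes make epoxides and hydroxy acids from arachidonic acid, is the largest with 15 members. Of these, 7 were at 0 in every library and 3 were tested, none of which passed. Its sum was 107 ± 8.77 CPM in control mice and 109 ± 8.78 CPM in Myc-deleted mice. Cyp2c65 (chr19:39061015-39093944) measured 54.6, 47.9 and 47.6 CPM in control mice and 60.6, 71.1 and 60.2 CPM in Myc-deleted mice. Each Myc-deleted library lay above each control, and the difference narrowly missed the threshold (0.35 ± 0.10 SE, edgeR adjusted p = 0.0530). It passed once no filter was applied (edgeR adjusted p = 0.0407). Cyp2c65 shares 20.6% of its 50-base windows with other genes, mainly with Cyp2c66, which had 4.16 to 6.34 counts per library.

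Cyp2c68 (chr19:39688834-39741054) lay the other way, at 26.2, 29.0 and 26.2 CPM in control mice and 19.3, 25.3 and 20.4 CPM in Myc-deleted mice. Each Myc-deleted library was below each control, but the difference did not pass (-0.33 ± 0.12 SE, edgeR adjusted p = 0.132). Cyp2c68 shares 43.3% of its windows with other genes, 35.6% with Cyp2c40, which was at 0 in every library. Cyp2c55, which hydroxylates arachidonic acid and is known from the colon, stood at 28.6 ± 5.39 and 21.7 ± 4.09 CPM with overlapping ranges (-0.40 ± 0.16 SE, edgeR adjusted p = 0.178).

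Among the other members of family 2, Cyp2s1 fell. This enzyme is typical of epithelia outside the liver, acts on lipid mediators and retinoic acid, and can be induced through Ahr. Cyp2s1 (chr7:25802475-25816913, minus strand) measured 97.7, 95.5 and 94.5 CPM in controls 1 to 3 and 69.8, 63.9 and 54.9 CPM in Myc-deleted mice 1 to 3. The controls lay close together, and each Myc-deleted library was below all of them. The log2 fold change was -0.61 ± 0.09 SE (1.53-fold lower, edgeR adjusted p = 0.00434). The call held in each of the 15 alternative analyses, and none of its 50-base windows occurs in another gene.

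Cyp2j6, a Cyp2j form of the gut wall, measured 104, 117 and 122 CPM in control mice against 121, 162 and 149 CPM in Myc-deleted mice. Myc-deleted mouse 1 lay inside the control range, and the difference did not pass (0.33 ± 0.11 SE, edgeR adjusted p = 0.112). Without that mouse it passed (0.44, edgeR adjusted p = 0.0235). The other 7 Cyp2j members had at most 17 counts in a library. Cyp2u1, a fatty acid hydroxylase, stood at 39.7 ± 2.41 and 38.6 ± 7.77 CPM (-0.04 ± 0.13 SE, edgeR adjusted p = 0.899). Cyp2r1, which hydroxylates vitamin D, was counted 1 to 8 times per library, too few for a test.

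The genes that receptors for foreign compounds induce most were barely present. Cyp1a1, the classical Ahr target, had 3, 5 and 2 counts in controls 1 to 3 and 1, 15 and 13 in Myc-deleted mice 1 to 3. Myc-deleted mice 2 and 3 were above the controls and mouse 1 was below them. Without a filter its adjusted p was 0.388 (1.46 ± 0.75 SE, edgeR). Cyp2b10, the classical Car target, had 5, 2 and 1 counts in control mice against 12, 14 and 5 in Myc-deleted mice, and gave an adjusted p of 0.168 without a filter (1.85 ± 0.71 SE, edgeR). Cyp1b1, found mainly in stroma, had 6, 19 and 10 counts in control mice against 9, 1 and 6 in Myc-deleted mice. In the run without a filter, which tested 55 members, 10 were called, and none of these was a member that the filter had removed. Over all 22581 genes tested in that run, 3.06% were called higher and 2.58% lower.

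Levels of different genes were compared per kilobase of merged exons. Cyp4f14 led with 533 ± 15.4 CPM per kb in control mice against 703 ± 36.0 in Myc-deleted mice. It was followed in the controls by Cyp4f16 at 114 ± 14.2 and Cyp3a13 at 113 ± 13.9 CPM per kb, which did not differ beyond their spread. In the Myc-deleted mice Cyp4f16 stood at 233 ± 24.5 CPM per kb and Cyp3a13 at 153 ± 5.92, so that their ranges separated. Next came Cyp4v3 (49.3 ± 2.95 CPM per kb in the controls), Cyp2d26 (48.4 ± 2.26) and Cyp4f40 (43.6 ± 4.07), which lay within each other's spread or close to it. Over all 6 libraries, Cyp4f genes made up 67.3% of the per-length level of all members, Cyp3a 12.2%, Cyp2d 5.65% and Cyp2c 4.52%. In control mice the last pair lay within each other's spread, with Cyp2c at 56.7 ± 4.43 and Cyp2d at 53.3 ± 2.49 CPM per kb. In Myc-deleted mice Cyp2c stood at 57.3 ± 4.69 and Cyp2d at 89.2 ± 19.6 CPM per kb. The share of Cyp4f14 was 49.2% ± 0.385 in control mice against 48.9% ± 0.695 in Myc-deleted mice (SD, n = 3). That of Cyp4f16 was 10.5% ± 1.16 and 16.1% ± 0.673.

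All 76 genes summed to 2894 ± 93.3 CPM in control mice against 3838 ± 228 CPM in Myc-deleted mice, a log2 ratio of 0.41. Cyp4f14 and Cyp4f16 carried most of that: without them the sums were 1255 ± 38.0 and 1421 ± 74.9 CPM, a log2 ratio of 0.18. By subfamily the log2 ratio of the summed level was 1.07 for Cyp4b, 0.75 for Cyp2d, 0.52 for Cyp4f, 0.34 for Cyp2j, 0.26 for Cyp3a and 0.02 for Cyp2c. It was -0.04 for Cyp2u, -0.11 for Cyp4v and -0.61 for Cyp2s. These sums are descriptions without a test.

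Fold changes of both signs occurred within the Cyp4f and Cyp2c clusters, but no cluster held genes called in both directions. The tested genes of the Cyp2d cluster had positive fold changes, and those of the Cyp3a cluster, Cyp3a11 and Cyp3a25, negative ones. On chromosome 17 the 8 clustered Cyp4f genes hold risers at both ends of the expressed stretch, Cyp4f16 on one side and the neighbours Cyp4f14 and Cyp4f13 on the other, with Cyp4f40 between them. Cyp4f14 and Cyp4f13 lie 7.3 kb apart on the same strand, and their coding sequences are 78.3% identical. Cyp4f13 is closer in sequence to Cyp4f16 (82.5%). Cyp4f14 is closest to Cyp4f40 (80.6%), the member of the cluster with a negative fold change, which was not called. Cyp2c55 and Cyp2c65, neighbours 18.3 kb apart, had fold changes of opposite sign, neither of them called. The coding sequences of Cyp3a13, which lies outside the Cyp3a cluster, and Cyp3a25 were 76.5% identical, as were those of Cyp3a13 and Cyp3a11.

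**Figure D3:**
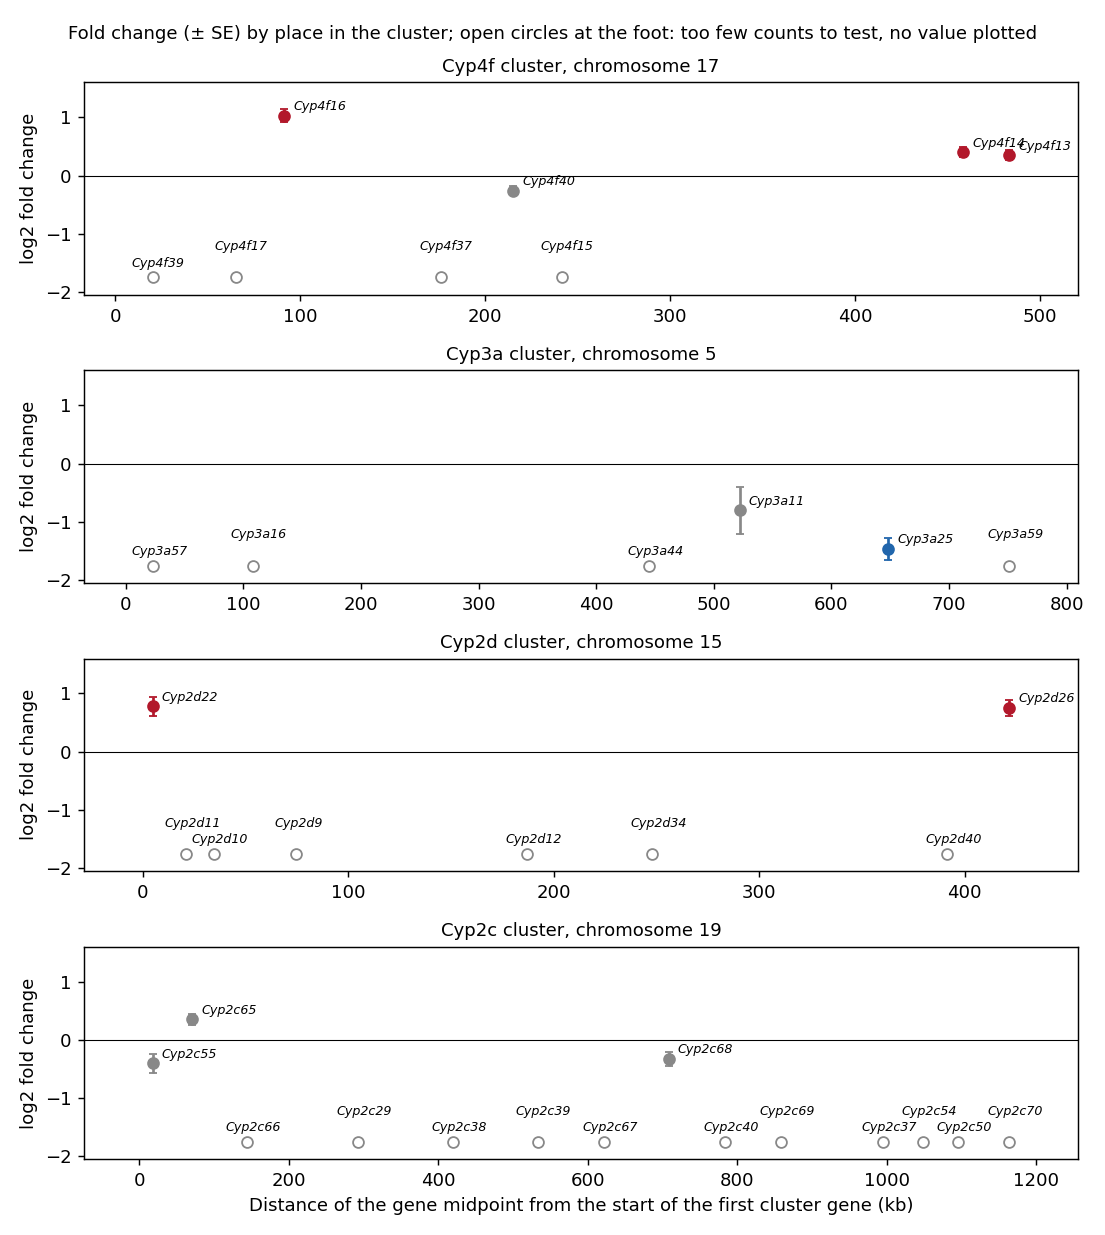
Log2 fold change with SE (vertical axes) against distance in kb from the first gene of the cluster, for the Cyp4f, Cyp3a, Cyp2d and Cyp2c clusters; Cyp3a13, Cyp2c23 and Cyp4f18, which lie apart, are not drawn. Red marks genes called higher, blue called lower, grey not called, and open circles at the foot are genes with too few counts to test; in the Cyp4f panel Cyp4f16 stands at 1.03 and Cyp4f40 at -0.26.

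Of the 76 genes, 63 had a promoter in the RefSeq table (70 starts), among them 16 of the 18 tested and 8 of the 9 called. The motifs were searched on both strands. They were the Ahr core GCGTG and its longer form TNGCGTG (each match to the longer form is also one to the core), the Myc E-box CACGTG and the TATA box TATAAA. The others were the nuclear receptor core AGGTCA, its direct repeats with a spacer of 1 or 3 bases (each also a match to the core), the Gata motif AGATAA, the Cdx2 motif TTTATNG and the palindromic motif of Hnf1. The E-box CACGTG was found in 2 of 70 member promoters (2.86%) and in 6.02% of all promoters, and in none of the 8 called genes. It stood 44 bases before the start of Cyp2j6 and 171 bases before that of Cyp4v3. The TATA box was found in 34.3% of member promoters and 12.4% of all, the nuclear receptor core in 24.3% and 14.0%, and the Gata motif in 21.4% and 9.99%. The Ahr core was found in 14 of 70 member promoters, against the 28.2% of all given above, and its longer form in 1.43% and 4.10%. The Cdx2 motif was in 12.9% and 9.81%. The direct repeats and the Hnf1 motif were in no member promoter and in at most 0.0335% of all. A match describes letters in the window, not a binding site.

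The other genes of the pathway came from lists chosen for P450 biology. The counts of each list stand beside 4.22% called higher and 3.73% called lower over all genes tested. Of 19 genes for electron supply and haem, 1 rose, which is near that share, and none fell, with a median log2 fold change of 0.01. The riser was Por, the reductase that every microsomal P450 needs. Por measured 189, 157 and 201 CPM in controls 1 to 3 and 239, 286 and 239 CPM in Myc-deleted mice 1 to 3, without overlap. It rose 1.40-fold (0.48 ± 0.11 SE, edgeR adjusted p = 0.0267). Without control 1 or 2 or Myc-deleted mouse 2 its adjusted p was 0.0670, 0.117 or 0.109, and the list held 0 risers without control 2 or Myc-deleted mouse 2. Cyb5a, cytochrome b5, measured 124, 127 and 133 CPM in control mice and 128, 150.2 and 137 CPM in Myc-deleted mice (0.11 ± 0.08 SE, edgeR adjusted p = 0.463).

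Of 29 tested regulators of P450 transcription (31 listed), 3 rose and 4 fell, with a median of -0.09. Nr0b2, the corepressor SHP, measured 0.994, 1.47 and 1.12 CPM in control mice and 5.12, 9.66 and 7.20 CPM in Myc-deleted mice (2.59 ± 0.31 SE, edgeR adjusted p = 0.00149). Gata4, a factor of the proximal small intestine, measured 3.18, 5.36 and 3.98 CPM in control mice and 7.59, 14.5 and 13.6 CPM in Myc-deleted mice (1.496 ± 0.27 SE, edgeR adjusted p = 0.00973). For both genes every Myc-deleted library lay above every control. The vitamin D receptor gene Vdr fell (-0.46 ± 0.09 SE, edgeR adjusted p = 0.0118), as did the fatty acid receptor gene Ppard (-0.47 ± 0.11 SE, edgeR adjusted p = 0.0240). The call of Ppard was lost without control 1 (edgeR adjusted p = 0.0575) or 3 (0.0795) or Myc-deleted mouse 2 (0.0879) or 3 (0.0716). The list held 1 faller without control 1, control 3 or Myc-deleted mouse 3, 2 without control 2 or Myc-deleted mouse 2, and 2 risers without control 2 or Myc-deleted mouse 2 or 3.

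The receptors for foreign compounds did not pass. Nr1i2, which encodes Pxr, stood at 126 ± 3.81 CPM in control mice and 132 ± 6.03 CPM in Myc-deleted mice (0.07 ± 0.07 SE, edgeR adjusted p = 0.618). Ahr stood at 6.25 ± 0.848 and 5.83 ± 1.22 CPM (-0.10 ± 0.20 SE, edgeR adjusted p = 0.828), with its sign turned without control 3 (0.0060). Nr1i3, which encodes Car, measured 1.19, 3.37 and 2.66 CPM in control mice and 2.84, 7.52 and 6.18 CPM in Myc-deleted mice. Myc-deleted mouse 1 lay within the control range, and the difference did not pass (1.18 ± 0.41 SE, edgeR adjusted p = 0.124). It passed without that mouse (edgeR adjusted p = 0.0344), with no filter (0.0321) and with DESeq2 (adjusted p = 0.0444). With a replicate block it passed too (edgeR adjusted p = 0.0165), though the labels do not pair the mice. Hnf4a, the master factor of enterocyte metabolism, stood at 1243 ± 99.2 and 1209 ± 51.3 CPM (-0.04 ± 0.09 SE, edgeR adjusted p = 0.841), with a fold change of 0.0011 without control 1. Ppara (0.13 ± 0.16 SE, edgeR adjusted p = 0.686) and Rxra (-0.12 ± 0.09 SE, edgeR adjusted p = 0.473), the partner of Pxr, Car and Ppara, did not pass either.

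Fellow targets of Pxr and Car changed in both directions. Of 23 tested genes (25 listed) 9 rose and 4 fell, a median of 0.27, where 7.95% of all tested genes were called. The glutathione transferase genes Gsta3 (2.29 ± 0.27 SE, edgeR adjusted p = 0.00149) and Gstm1 (0.97 ± 0.13 SE, edgeR adjusted p = 0.00245) rose. Gsta3 went from 1.06 ± 0.173 to 5.20 ± 0.865 CPM. The efflux pump gene Abcg2 (-0.50 ± 0.08 SE, edgeR adjusted p = 0.00503) and the sulfotransferase gene Sult1d1 (-0.53 ± 0.08 SE, edgeR adjusted p = 0.00441) fell. Fallers numbered 2 without control 3, and risers 6 without control 2. Of 7 tested Ahr targets other than P450 (10 listed) 1 rose, Gsta1 (1.23 ± 0.22 SE, edgeR adjusted p = 0.00915), which is also on the Pxr and Car list; without Myc-deleted mouse 1 there were 2. The median of the Ahr list was 0.14.

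Of 24 tested Ppara targets other than P450 (28 listed) 3 rose and 2 fell, with a median of 0.08. Angptl4, an inhibitor of lipoprotein lipase (0.90 ± 0.17 SE, edgeR adjusted p = 0.0126), Fabp2, a fatty acid binding protein (0.90 ± 0.17 SE, edgeR adjusted p = 0.0132), and Creb3l3, a factor of lipid metabolism (0.60 ± 0.12 SE, edgeR adjusted p = 0.0130), rose. Ehhadh, of peroxisomal fatty acid oxidation, fell (-0.36 ± 0.07 SE, edgeR adjusted p = 0.0166). Without control 2 the adjusted p (edgeR) was 0.0693 for Fabp2, 0.0739 for Creb3l3 and 0.0700 for Ehhadh, without Myc-deleted mouse 2 it was 0.0553 for Creb3l3, and without control 1 it was 0.0646 for Ehhadh. Risers numbered 1 without control 2, 2 without Myc-deleted mouse 2 and 6 without Myc-deleted mouse 1. Fallers numbered 0 without control 1 or 2 and 1 without control 3 or Myc-deleted mouse 2 or 3.

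Among epoxide hydrolases, which act on P450 products, and other enzymes of eicosanoid metabolism, 16 of 27 listed genes were tested. Of these 3 rose and none fell, with a median of -0.02. Ephx1, the microsomal epoxide hydrolase that opens epoxides of foreign compounds, measured 2.78, 7.26 and 2.86 CPM in control mice and 14.8, 26.0 and 19.7 CPM in Myc-deleted mice. The groups were far apart (2.20 ± 0.33 SE, 4.59-fold, edgeR adjusted p = 0.00404). Ephx2, the soluble hydrolase that acts on fatty acid epoxides, measured 85.6, 81.9 and 86.4 CPM in control mice against 114, 134 and 115 CPM in Myc-deleted mice (0.51 ± 0.08 SE, edgeR adjusted p = 0.00592). Cbr1, a carbonyl reductase, rose as well (0.52 ± 0.12 SE, edgeR adjusted p = 0.0229), but not without control 1 (edgeR adjusted p = 0.0711), 2 (0.0790) or 3 (0.0838) or Myc-deleted mouse 2 (0.0655). The list held 2 risers in those runs.

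Of the P450 families from 5 upwards, 4 of 21 genes could be tested and 1 fell. Cyp39a1, an oxysterol hydroxylase, went from 2.95 ± 0.534 to 1.07 ± 0.290 CPM (-1.45 ± 0.32 SE, edgeR adjusted p = 0.0231). The call was lost without control 1 (edgeR adjusted p = 0.0861) or 2 (0.0907) or Myc-deleted mouse 2 (0.0868) or 3 (0.0552). Cyp27a1, the sterol 27-hydroxylase (-0.22 ± 0.22 SE, edgeR adjusted p = 0.611), and Cyp51, of cholesterol synthesis (-0.06 ± 0.11 SE, edgeR adjusted p = 0.818), did not pass. Their signs turned without Myc-deleted mouse 3 for Cyp27a1 (0.0035) and without Myc-deleted mouse 2 for Cyp51 (0.023). The median of the 4 genes was -0.14.

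**Figure D4:**
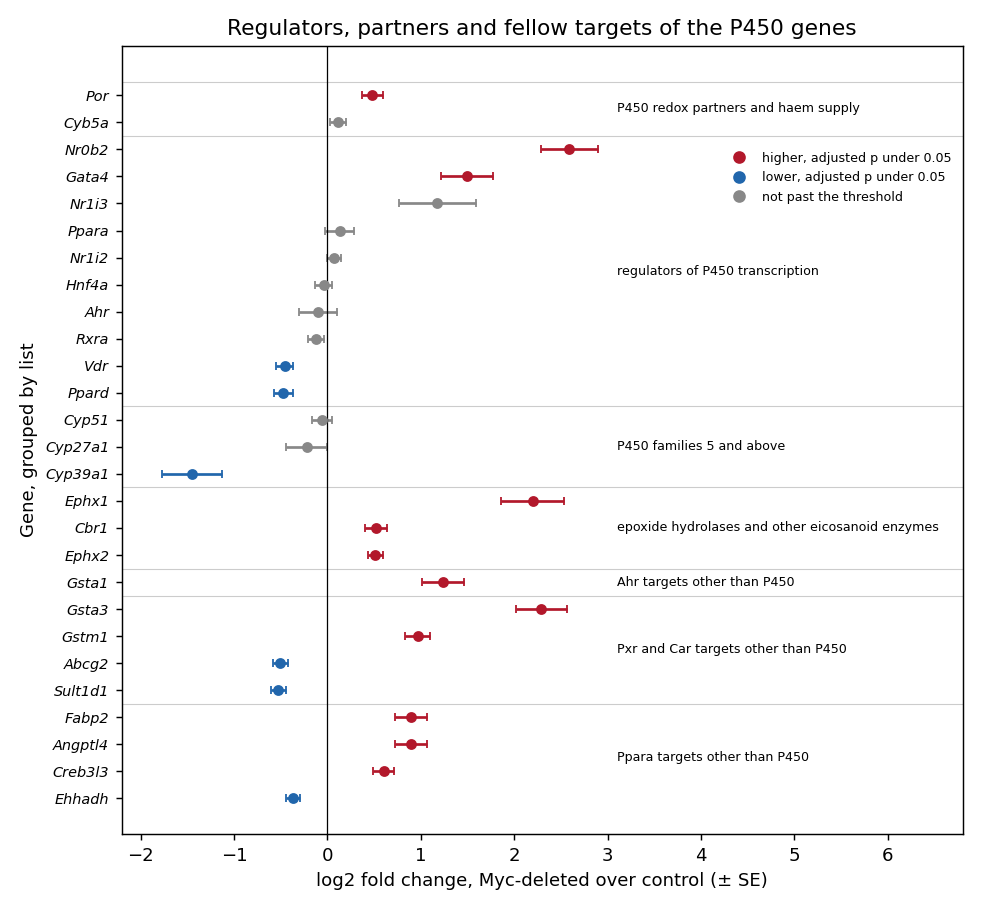
Log2 fold change with SE, Myc-deleted over control, of the regulators, partners and fellow targets named in the text, grouped by list; red marks genes called higher, blue called lower and grey not past the threshold. Nr0b2, Gsta3 and Ephx1 stand farthest to the right at over 2, while the receptor genes Nr1i2, Ahr and Ppara sit near 0.

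Some lists of markers of place and cell type held called genes, and others held none. Over all genes tested, 4.22% were called higher and 3.73% lower. Of 25 enterocyte markers 6 rose (2 without control 2, 4 without control 1 or Myc-deleted mouse 2), and their sum ran from 56490 to 66540 CPM in control mice and from 67920 to 74410 CPM in Myc-deleted libraries. Of 12 tested proximal markers (14 listed) 4 rose and 1 fell (6 rose without Myc-deleted mouse 1), with sums of 4700 to 6221 and 6111 to 8655 CPM. The lists share genes: the 4 that rose, Gata4, Gsta1, Lct and Slc2a2, each count in another list as well. So do Fabp2, Por and Gcg. Slc2a2, a glucose transporter high in the proximal intestine, went from 1.75 ± 0.851 to 21.0 ± 0.359 CPM, and Lct, the lactase gene, from 2.14 ± 1.45 to 18.7 ± 11.8 CPM. The call of Lct was lost without control 2 (edgeR adjusted p = 0.0546) and with limma voom (adjusted p = 0.0642). The proximal marker that fell was Slc40a1, from 84.8 ± 26.0 to 10.2 ± 3.38 CPM (-3.05 ± 0.26 SE, edgeR adjusted p = 0.000397). Of 16 ileum markers 3 rose, and their sums overlapped at 20140 to 21760 and 19230 to 22000 CPM. Fabp6 did not pass (-0.06 ± 0.14 SE, edgeR adjusted p = 0.846) and had a positive sign without control 1 (0.041). Among the ileum markers that rose, Fgf15 went from 117 ± 35.8 to 453 ± 141 CPM (1.95 ± 0.26 SE, edgeR adjusted p = 0.00236). Gcg went from 23.4 ± 3.35 to 46.0 ± 6.40 CPM (0.97 ± 0.13 SE, edgeR adjusted p = 0.00243). Crypt stem cell markers rose in 5 of 12 tested genes (sums of 227 to 286 and 309 to 372 CPM), and enteroendocrine markers in 4 of 13 (309 to 330.2 and 369 to 464 CPM; 2 without control 1 or 2 or Myc-deleted mouse 2 or 3). Colon markers fell in 3 of 8 tested genes (4170 to 4404 and 4149 to 4475 CPM; 2 in 5 of the 6 leave-one-out runs). By edgeR none of the 13 Paneth, 11 goblet or 9 tested tuft cell markers was called; without Myc-deleted mouse 1, 3 Paneth and 2 goblet markers rose. Of the 10 pancreatic acinar markers 1 could be tested and rose, and 5 were at 0 in every library. The sums of the 13 tested smooth muscle and stroma markers were 244 to 329 and 242 to 284 CPM, with none called except 2 lower without control 3. The part of cell content or intestinal position in the P450 values was not tested.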

How the data were processed

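Total RNA was made into TruSeq stranded mRNA libraries, per the labels' protocols. The authors deposited expected counts per gene, not scaled between libraries; cutadapt, STAR, Picard, RSEM and the build mm10 are named, without their roles, per the submitters' processing notes. The sources used here give no versions, read length or annotation. Expected counts divide reads shared by similar genes, so members with shared windows are less certain.

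Symbols, positions and merged exon lengths came from GENCODE M21 (99.1% of 47643 identifiers matched without version). Expected counts were rounded. The fit used edgeR 4.0.16 (R 4.3.3): filterByExpr (minimum count 10, minimum total 15), TMM, quasi-likelihood F-test, Benjamini-Hochberg adjustment, threshold 0.05. The SE is the absolute log2 fold change over the root of F. The procedure was tested on simulated data. There it missed most changes of 1.5-fold or less, and the share of false calls lay above the threshold of 0.05. That was a single simulated set with far fewer called genes than these data, so the same shares need not hold here. The labels do not say more about how samples of a group were obtained, so p-values set the group difference against the spread between these libraries only. No 2 libraries agreed within sampling noise.

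Members and lists were chosen with earlier results of these data known. Genes named were all called members, the most abundant per length of 8 subfamilies, the 12 with the highest CPM and up to 8 uncalled ones without overlap. Others were up to 4 called genes per pathway list with the lowest p, and fixed pathway and marker genes. Cyp4f18, Cyp2c55, Cyp2u1, Cyp3a11, members with too few counts, Tat, Hpd, Trf, Itgam, Serpina1b, Slc40a1, Fgf15 and Gcg were chosen after seeing their values. Alternatives comprised scaling by RLE or upper quartiles, DESeq2 1.42.0, limma 3.58.1 voom, 2 filters, a replicate block, each library left out, an adjusted p of 0.1 and glmTreat at 1.2-fold. Shared sequence was counted as identical windows of 50 bases between the longest coding transcript of a member and all GENCODE M21 transcripts.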

Additional observations from a re-analysis of the deposited data

How the results depend on the processing

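Of the 9 called members, Cyp4f16, Cyp4b1, Cyp2d26, Cyp2s1 and Cyp3a25 kept their call and direction in each of 15 alternatives. Of these alternatives, the looser adjusted p threshold of 0.1 on the same fit could remove no call. The number of higher members was 3 when tested against a 1.2-fold change and 3 to 8 with 1 library left out, and the number of lower members stayed at 2 in those leave-one-out runs; the cause was not tested, beyond fewer libraries giving less precision. Other alternatives gave 6 to 8 higher and 2 to 3 lower. With 1 library left out, log2 fold changes that were not called ran across 0: from -0.28 to 0.034 for Cyp4v3 and from -0.52 to 0.0035 for Cyp27a1 (positive without Myc-deleted mouse 3), from -0.28 to 0.0060 for Ahr (without control 3), from -0.15 to 0.023 for Cyp51 (without Myc-deleted mouse 2), and from -0.15 to 0.041 for Fabp6 and from -0.12 to 0.0011 for Hnf4a (without control 1). With upper-quartile scaling 449 of all genes were higher and 591 lower, against 1.2-fold 230 and 178, and without control 2, the lowest of the leave-one-out runs, 229 and 233. The labels do not say that equal replicate numbers pair mice: deviations of same-numbered libraries correlated at 0.0261, 0.0524 and 0.0189, each library best with its own number. With the replicate block 6 members were higher and 3 lower, the edgeR adjusted p was 0.0765 for Cyp4f13 and 0.0165 for Nr1i3, and over all genes 552 were higher and 428 lower (537 and 474 without it). The 58 members with too few counts were not tested; 21 of them had 0 counts in every library.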
